A study of Mus musculus with 8 samples.

Results

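Interferon-stimulated genes are the genes that cells switch on when they sense interferon or the viral and cellular nucleic acids that induce it. A list of 43 such mouse genes was followed in RNA of the neonatal heart ventricle, measured on 8 single-colour Agilent arrays. The members were found through the RefSeq accession each probe carries, and the brightest probe stood for a gene. Of the 43 genes, 41 had a probe and 39 were tested, out of 15744 genes tested among the 22911 that the array names. All 39 tested members were well above background on all 8 arrays. No probe carried an accession of Mx1 or Mx2, Oas3 was not well above background on any array, and the only spot for Isg15 was flagged as non-uniform on 1 array. The study compared homozygous knock-in mice (KI, TNNT2ΔK210/ΔK210), which lack a single lysine codon of the cardiac troponin T gene and serve as a model of dilated cardiomyopathy, with wild-type mice (WT), at 1 week of age and immediately at birth. Each of the 4 groups (KI at 1 week, WT at 1 week, KI at birth and WT at birth) had 2 arrays. Per the labels, ventricles of 3 animals were combined, and nothing says whether the 2 arrays of a group held separate pools, so errors and p-values measure the spread between arrays, which may be technical. The knock-in allele is present in every cell and removes only 1 amino acid, so the Tnnt2 signal does not check the genotype labels.

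Type I interferons bind the receptor pair IFNAR1 and IFNAR2, whose kinases JAK1 and TYK2 activate a complex with STAT2 and IRF9 that binds the interferon-stimulated response element (ISRE) in promoters. Interferon gamma acts at the gamma-activated site (GAS) and induces IRF1. The induced proteins degrade or sequester foreign RNA, block viral entry, present antigen, and sense further nucleic acid, while USP18 shuts the receptor off again. In hearts these genes are known from viral myocarditis and from the macrophage response after infarction.

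The promoter stretches that carry these elements are shown for 8 members, since the same letters recur in genes that differ in behaviour below. The sequences are from RefSeq (GRCm38.p6), 5′ to 3′ on the gene's strand, and capitals mark every match on either strand to the ISRE core (GAAA, any 2 bases, then GAAA) or to GAS, searched as TTCNNNGAA, which reads the same on both strands.
Isg15, chr4:156200859-156200918, minus strand: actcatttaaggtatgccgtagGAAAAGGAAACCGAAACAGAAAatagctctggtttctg
Ifit1, chr19:34640769-34640828, plus strand: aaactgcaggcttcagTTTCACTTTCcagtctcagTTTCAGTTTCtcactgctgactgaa
Ifit3, chr19:34583359-34583428, plus strand: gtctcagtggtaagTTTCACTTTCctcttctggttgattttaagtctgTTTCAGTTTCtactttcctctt
Oas1a, chr5:120907526-120907575, minus strand: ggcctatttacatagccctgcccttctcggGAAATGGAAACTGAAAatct
Bst2, chr8:71537573-71537622, minus strand: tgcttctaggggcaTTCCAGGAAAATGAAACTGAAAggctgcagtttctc
Igtp, chr11:58199496-58199545, plus strand: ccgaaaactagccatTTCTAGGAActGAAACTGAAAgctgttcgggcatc
Irf1, chr11:53769904-53769953, plus strand: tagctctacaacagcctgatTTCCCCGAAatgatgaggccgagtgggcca
Psmb8, chr17:34198075-34198124, plus strand: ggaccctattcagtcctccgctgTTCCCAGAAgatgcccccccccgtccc

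The Isg15 stretch holds 3 overlapping ISRE matches, which begin 78, 72 and 66 bases before the transcription start. The Ifit1 and Ifit3 stretches each hold 2 separate matches, all on the other strand. The Oas1a stretch ends at the start site and holds 2 overlapping matches. In Bst2 a GAS match runs into 2 ISRE matches, in Igtp the GAS and ISRE matches lie 2 bases apart, and the Irf1 and Psmb8 stretches hold a GAS match only. Among the 33 members with a promoter in the table, 13 (39.4%) held an ISRE match in the 250 bases before a start, against 936 of 27025 genes in the whole table (3.46%). A GAS match was found in 9 of the 33 (27.3%), against 8.13% of all genes. A match is a description of the letters and not a measured binding site, and genes with several starts had more than 1 window searched.

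The deposited records disagree on which 1-week array is which, and this bears on every 1-week value below. In the deposited value table, 3 of the 4 columns for 1 week held the values of a scanner file that carries a different sample label. The 4 arrays are therefore named A to D. By the value table, arrays B and C were KI and arrays A and D were WT. By the scanner files, C and D were KI and A and B were WT. The birth arrays had the same identity in both records. The value-table record is used throughout, with the scanner-file record beside it. Array A, WT in both records, stood far from the other 1-week arrays in genes of neighbouring tissue. The mean log2 level of 5 adipocyte markers was -3.71 on A, against 0.04 on B, 0.16 on C and 1.57 on D. That of 3 atrial markers was 1.38 on A, against 5.33 on B, 5.39 on C and 6.30 on D. The 1-week WT arrays were thus far apart in these genes by either record. All arrays lay on 1 slide. Birth and 1-week arrays occupied separate rows, and an effect of row cannot be told apart from one of age. At birth KI and WT arrays occupied separate columns, and an effect of column cannot be told apart from one of genotype. The scanner software marked KI replicate 1 at birth for evaluation and the other 7 arrays as in range. Cardiomyocyte markers were high on every array, with mean log2 levels of 7.92 to 8.16.

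At birth the interferon-stimulated genes stood higher in KI than in WT ventricles as a group, while no single member passed the test across all genes. All 39 tested members had a KI minus WT difference above 0, against 50.5% of all genes tested. Their median difference was 0.31 on the log2 scale, against 0.00 for all genes, and the single differences ran from 0.01 for Dtx3l to 1.00 for Usp18. In 32 of the 39 members both KI arrays lay above both WT arrays, which held for 16.7% of all genes, and in 0 did both lie below, against 15.2% of all genes. The members, and the pathway and marker lists below, were chosen with earlier results of these data known. Counts and shares over them are therefore descriptions and not a test. In bulk tissue, more cells that express these genes and more RNA per cell cannot be told apart.

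The mean log2 level over the 39 members was 0.42 and 0.32 on the KI arrays at birth, against -0.00 and 0.03 on the WT arrays. All levels are log2 signals relative to the 75th percentile of the probes of the same array, so a level of 0 is a fairly bright probe, and levels of different genes are not comparable. The 2 KI arrays of a member differed by a median of 0.12 and the 2 WT arrays also by 0.12, against the median KI minus WT difference of 0.31. Over all genes tested, those gaps were 0.16 and 0.17 and the median absolute KI minus WT difference was 0.11. By limma with Benjamini-Hochberg adjustment over 15744 genes, 0 of the 39 members passed an adjusted p of 0.05, as did 0.0127% of all genes upward. At an unadjusted p under 0.05, 17 members were higher and 0 lower, against 2.91% and 1.80% of all genes. With the scanner-file record for the spread, 13 were higher, against 2.55% of all genes. An exact permutation test of 2 against 2 arrays cannot give a two-sided p under 0.3333.

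**Figure D1:**
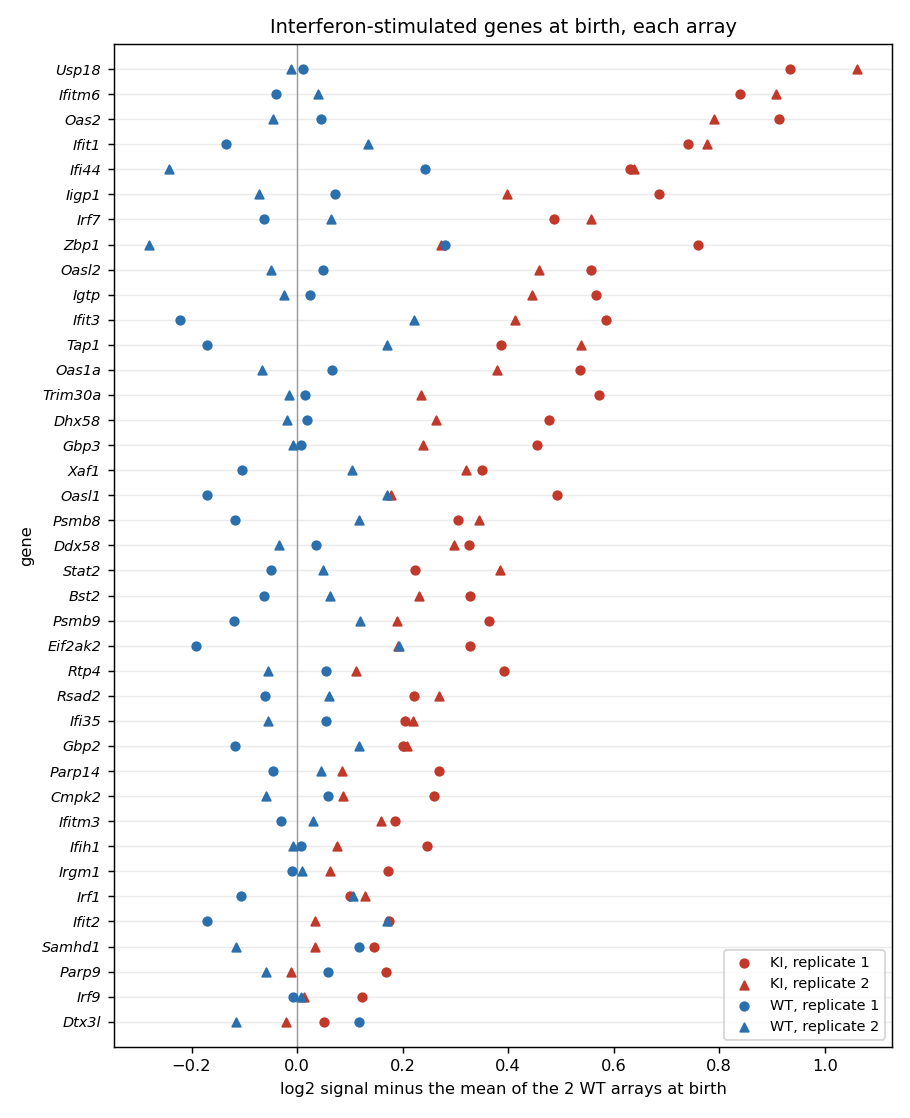
Log2 signal of each of the 39 tested members on the 4 birth arrays, minus the mean of the 2 WT arrays, ordered by the KI minus WT difference. Red marks are KI and blue marks WT, with circles for replicate 1 and triangles for replicate 2. KI marks lie to the right of WT marks without overlap in 32 genes, by about 1.00 for Usp18, and the marks intermix in genes such as Dtx3l.

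Usp18, the protease that strips ISG15 from proteins and blocks signalling at the interferon receptor, had the highest difference. Its level was -0.48 and -0.36 in KI ventricles at birth, against -1.41 and -1.43 in WT ventricles. The groups lay far apart compared with the gaps within them, and the difference was 1.00 ± 0.13 (SE, limma, n = 2 each), 2.00-fold, with an adjusted p of 0.131. Isg15, the ubiquitin-like modifier itself, was left out of the test because its spot was flagged on array D. With the flagged spot kept, a setting chosen after seeing the data, its birth levels were 2.67 and 3.02 in KI, against 2.12 and 2.39 in WT. That is a difference of 0.59 ± 0.29, with the groups apart and an adjusted p of 1.00.

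The oligoadenylate synthetase family includes enzymes that make the messenger that activates RNase L. All 4 tested genes of the family had both KI arrays above both WT arrays (16.7% of all genes). Oas2 was at -0.13 and -0.26 in KI, against -1.0 and -1.09 in WT. Its difference of 0.85 ± 0.12 had the second lowest adjusted p of the members, 0.215. Oasl2 differed by 0.51, Oas1a by 0.46 and Oasl1 by 0.34. Oas1a has close copies in the mouse genome, so its probe may take up related transcripts. Oas3 could not be read.

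The IFIT genes encode proteins that bind foreign RNA and block its translation. Ifit1 was at -2.29 and -2.25 in KI, against -3.16 and -2.89 in WT, a difference of 0.76 ± 0.24. Ifit3, which stabilises IFIT1, differed by 0.50, and the mouse genome holds a near copy of it that the probe may also read. Ifit2 was at -0.83 and -0.97 in KI, against -1.17 and -0.83 in WT. These overlapped, with a difference of 0.10.

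The genes for interferon-inducible GTPases, which attack the membranes around intracellular parasites, included Igtp, Iigp1, Irgm1, Gbp2 and Gbp3. All 5 had both KI arrays above both WT arrays (16.7% of all genes). Igtp was at 1.51 and 1.39 in KI, against 0.97 and 0.92 in WT, a difference of 0.51 ± 0.13. Iigp1 was at 1.24 and 0.95 in KI, against 0.62 and 0.48 in WT, a difference of 0.54. Gbp3 differed by 0.35, Gbp2 by 0.20 and Irgm1 by 0.12. The GBP genes form a family of similar sequences, and their probes may share signal.

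The 5 sensors of viral nucleic acid had a median difference of 0.31, and 3 of them had both KI arrays above both WT arrays (16.7% of all genes). Dhx58, which encodes the LGP2 helicase that tunes RIG-I and MDA5, was at -2.38 and -2.60 in KI, against -2.84 and -2.88 in WT, a difference of 0.37 ± 0.13. Ddx58, the gene for RIG-I itself, differed by 0.31 and Ifih1, the gene for MDA5, by 0.16. Zbp1, a sensor of left-handed nucleic acid, had a difference of 0.52 but overlapping arrays. Eif2ak2, which encodes the RNA-activated kinase PKR, also overlapped, with a difference of 0.26.

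Of the transcription factors, Irf7, the regulator that amplifies interferon production, was at 2.93 and 3.0 in KI, against 2.38 and 2.51 in WT. Its difference was 0.52 ± 0.12, 1.44-fold, with an adjusted p of 0.573. Stat2 and Irf9, the partners of the factor that binds the ISRE, differed by 0.30 and 0.07. Irf1, the factor most tied to interferon gamma, differed by 0.11 and its arrays overlapped.

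Among genes that restrict viruses at membranes, Ifitm6 stood apart from its relative Ifitm3. Ifitm6 was at -2.13 and -2.06 in KI, against -3.01 and -2.93 in WT, a difference of 0.87 ± 0.18. Ifitm3 differed by 0.17. Bst2, which tethers budding virions to the cell and whose promoter stretch holds both elements, differed by 0.28. Rtp4, a receptor chaperone that also restricts flaviviruses, was at 2.38 and 2.10 in KI, against 2.04 and 1.93 in WT, a difference of 0.25. All 4 had both KI arrays above both WT arrays (16.7% of all genes).

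The antigen-processing members likewise all had both KI arrays above both WT arrays (16.7% of all genes). Tap1, the peptide pump that loads class I molecules, was at -0.84 and -0.69 in KI, against -1.39 and -1.05 in WT, a difference of 0.46 ± 0.16. Psmb8 and Psmb9, 2 catalytic subunits of the immunoproteasome, differed by 0.33 and 0.28. In the remaining genes, Ifi44, which encodes an interferon-induced antiviral protein, was at -0.62 and -0.61 in KI, against -1.01 and -1.49 in WT, a difference of 0.63. Trim30a differed by 0.40, Xaf1 by 0.34 and Ifi35 by 0.21.

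The role groups with the smallest median differences, 0.17 and 0.08, were the enzymes of nucleotide and lipid metabolism and the ADP-ribosylation complex. Rsad2, which encodes viperin and makes a chain-terminating nucleotide, was at 0.82 and 0.86 in KI, against 0.53 and 0.65 in WT, a difference of 0.25. Cmpk2, its neighbour in the genome, differed by 0.17 and Samhd1, which depletes the nucleotides viruses copy with, by 0.09. Parp14 was at 0.92 and 0.74 in KI, against 0.61 and 0.70 in WT, a difference of 0.18. Its partners Parp9 and Dtx3l differed by 0.08 and 0.01, with overlapping arrays.

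For 16 members the array carried further probes, 20 in all. Of these, 19 also read higher in KI at birth, and the other was not above background on all arrays. Without KI replicate 1, the array marked for evaluation, 37 of the 39 members were above 0 and the median difference was 0.24. As a description only, the 11 tested members with an ISRE match had a median birth difference of 0.35 and the 20 without one 0.27. Split by the GAS match, the order was the other way, with 0.28 in the 9 members that hold one and 0.31 in the 22 that do not.

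The signalling chain upstream of these genes did not shift in the same way at birth. Of the 6 receptor genes, 1 was above 0 and the median difference was -0.02, with Ifnar1 at -0.02, Ifnar2 at -0.01, Il10rb at -0.13 and Ifnlr1 at -0.07. Of the 5 kinase and STAT genes, 2 were above 0, with a median of -0.02 and a range of -0.13 to 0.25. In 1 of them both KI arrays lay above both WT arrays (16.7% of all genes) and in 1 below (15.2%). Jak1, the gene for a receptor kinase, had the lowest difference, -0.13. Of 10 interferon genes, 3 were bright enough to test and none had an unadjusted p under 0.05; Ifnl3 differed by 0.35 and Ifna1 by -0.03. Ifnb1 was not well above background on any array and Ifng on array A only. Among 5 further IRF genes, 4 were above 0, with Irf5 at 0.41 and Irf8 at 0.19. Among 12 sensing adaptors 7 were above 0; Myd88 differed by 0.21, and Tlr7, an endosomal RNA receptor, was lower in KI by a difference of -0.95 with an adjusted p of 1.00. Of 7 brakes on the pathway, 6 were above 0, and Ptpn6 differed by 0.31 and Adar by 0.22. None of these genes passed the test.

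A wider list of 46 other interferon-response genes had 42 tested, of which 32 were above 0 at birth, with a median of 0.18. In 20 of them both KI arrays lay above both WT arrays (16.7% of all genes) and in 1 below (15.2%). Nlrc5, of this list, was well above background on both KI birth arrays and on neither WT birth array. None of the 42 passed the test. Ifi27 was at 3.36 and 3.73 in KI, against 2.54 and 2.83 in WT, a difference of 0.86 ± 0.18 with an adjusted p of 0.463. Slfn2, a gene of T cell and monocyte quiescence, was at -1.79 and -1.75 in KI, against -2.32 and -2.24 in WT, a difference of 0.51 with an adjusted p of 0.536.

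Markers of several other cell types stood higher in KI beside the birth result, without passing the test. Of 12 neutrophil markers, 10 were above 0 with a median of 0.60. In 9 of them both KI arrays lay above both WT arrays, against 16.7% of all genes. Cxcr2 and Mmp9, among these, were well above background on both KI birth arrays and on no other array. They passed the filter only through the group where they are high, so their WT levels are bounds and they add no support. S100a8 differed by 0.90 and S100a9 by 0.83. The mean log2 level of the neutrophil list was -0.69 and -0.45 in KI, against -1.18 and -1.37 in WT. Its summed level overlapped, at 7.40 to 7.55 on the log2 scale in KI and 7.43 to 7.46 in WT. That sum is set mostly by 1 gene, Csf3r, at 7.2 and 7.34 in KI and 7.30 and 7.35 in WT. It therefore says little on the other markers of the list. All 8 tested lymphocyte and natural killer cell markers were above 0 with a median of 0.55. However, Cd3e differed by 0.06, and Cd3g was not above background on any array. Cd79a was well above background on both KI birth arrays and on neither WT birth array, so its WT level is only a bound. It passed the filter only through the group where it is high and adds no support, though the count and median include it. The summed level of the list was 0.56 to 1.09 in KI and 0.03 to 0.33 in WT. All 5 platelet markers were above 0 with a median of 0.50, Pf4 by 0.36 and Ppbp by 0.52. Their summed level was 2.54 to 2.57 in KI and 2.16 to 2.20 in WT. All 3 atrial markers were above 0 with a median of 0.55. The atrial light chain gene Myl4 was at 7.61 and 7.22 in KI, against 6.73 and 6.53 in WT, a difference of 0.78 with the arrays apart, while Sln differed by 0.55 and Myl7 by 0.19 with overlapping arrays. The summed atrial level was 7.56 to 8.06 in KI and 7.15 to 7.22 in WT. None of these passed the test, and their part in the interferon result was not tested.

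Macrophage, endothelial, fibroblast and cardiomyocyte markers had medians closer to 0. Of 12 macrophage and monocyte markers, 7 were above 0 with a median of 0.12, Csf1r by 0.13 and Adgre1 by -0.01, and the summed level was 4.56 to 4.92 in KI and 4.59 to 4.79 in WT. Endothelial markers had a median of -0.08, with Pecam1 at -0.32 and Cdh5 at -0.12. Fibroblast markers had a median of -0.04, with Col1a1 at 0.05 and Dcn at -0.04. Cardiomyocyte markers had a median of -0.05, with Myh6 at -0.22 and Tnnt2 at -0.08. For plasmacytoid dendritic cells, a main source of type I interferon, Siglech was at 5.75 and 5.55 in KI, against 6.80 and 6.71 in WT, a difference of -1.10 with an adjusted p of 0.109. Spib, from the same list, lay the other way, at -4.33 and -3.45 in KI, against -5.20 and -4.84 in WT, with an adjusted p of 0.596. It was well above background on both KI arrays and on neither WT array, so its WT level is only a bound. Pacsin1 differed by 0.15, which was also the median of the 3 tested markers, and Ccr9 and Klk1 were too dim to test. The Siglech probe read far brighter than the others of this list on every array. Whether its signal came from these cells was not tested, so its level is not a measure of them. Erythroid, epicardial and adipocyte markers had medians of 0.31, 0.20 and -0.27. Alas2 differed by 0.72, Wt1 by -0.02, Upk3b by 0.34, Adipoq by -0.28 and Ucp1 by -0.27. However, Adipoq, Ucp1, Plin1 and Cfd were not well above background on any birth array. Their differences and the adipocyte median are therefore not measures of genotype.

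**Figure D2:**
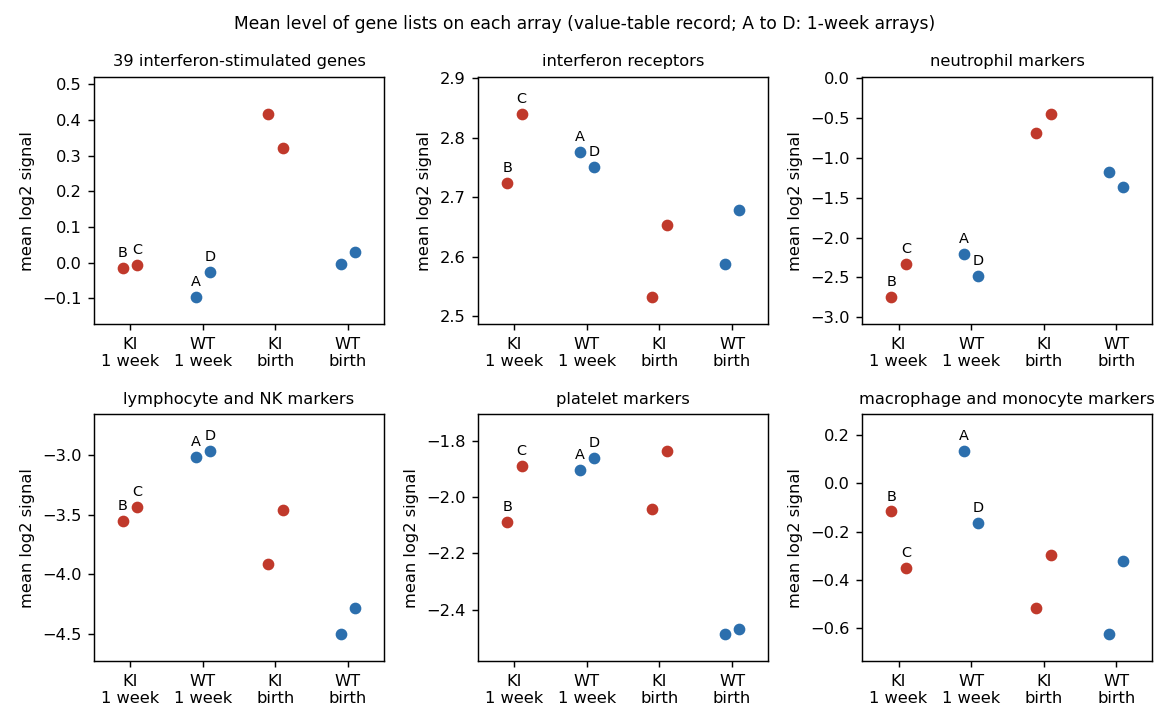
Mean log2 signal of the 39 interferon-stimulated genes, of the interferon receptor genes and of 4 marker lists on each array, with 1 panel for each list and its own vertical scale. Red points are KI and blue points WT by the value-table record, and letters name the 1-week arrays. The interferon-stimulated genes averaged 0.42 and 0.32 on the KI birth arrays and lay between -0.10 and 0.03 on the other 6, while neutrophil markers were lower on all 1-week arrays than on all birth arrays.

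At 1 week no such shift between genotypes was seen, in either record. By the value-table record 19 of the 39 members were above 0, against 54.4% of all genes, and the median difference was -0.02. Both KI arrays lay above both WT arrays in 13 members (19.8% of all genes) and below them in 7 (18.0% of all genes). By the scanner-file record 24 were above 0 with a median of 0.05, against 50.6% of all genes. There 8 were separated upward (20.2% of all genes) and 4 downward (19.9% of all genes). No member passed the test in either record, while 0.0508% and 0.00635% of all genes did. At an unadjusted p under 0.05, 3 members were higher (3.72% of all genes) and 1 lower (3.34%) by the value-table record. By the scanner-file record 1 was higher (4.61%) and 1 lower (5.27%). The direction differed between the records in 25 of the 39 members.

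The mean over the 39 members was -0.01 on both array B and array C, against -0.10 on array A and -0.03 on array D. These lay close together whichever way the arrays were labelled, and all 4 were below both KI birth arrays. Usp18, the member with the highest birth difference, was at -1.45 on B and -1.65 on C, against -1.44 on A and -1.53 on D. Its KI minus WT difference was -0.07 by the value table and -0.14 by the scanner files. Oas2 was at -0.97 on B and -1.07 on C, against -1.18 on A and -1.12 on D, with differences of 0.13 and -0.02. Irf7 was at 1.54 on B and 1.67 on C, against 1.63 on A and 1.72 on D, with differences of -0.07 and 0.11. By the value table the 1-week arrays of Usp18 and Irf7 overlapped between genotypes, and those of Oas2 were narrowly apart.

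Several members had a 1-week difference that hung on the labels. Iigp1 was at 1.32 on B and 0.92 on C, against 0.64 on A and 0.59 on D. That is a difference of 0.50 ± 0.18 by the value table, with an adjusted p of 0.686, but of -0.22 by the scanner files. Dhx58 was at -3.43 on B and -3.29 on C, against -3.79 on A and -3.67 on D, with differences of 0.37 and 0.13. Rtp4 was at 1.39 on B and 1.44 on C, against 1.20 on A and 1.06 on D, with differences of 0.29 and -0.04. Rsad2 stood out on 1 array, at 0.33 on B and 1.01 on C, against 0.25 on A and 0.26 on D. Xaf1, a promoter of apoptosis, went the other way, at 0.17 on B and -0.04 on C, against 0.40 on A and 0.43 on D, with differences of -0.35 and -0.09. Ifit2 had differences of 0.28 and -0.08, and Dtx3l of 0.22 and -0.04. By the value table all 8 lymphocyte and natural killer cell markers lay below 0 at 1 week, with a median of -0.46. By the scanner files 4 lay above and 5 below, with a median of -0.03, and their part in the members' values was not tested.

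**Figure D3:**
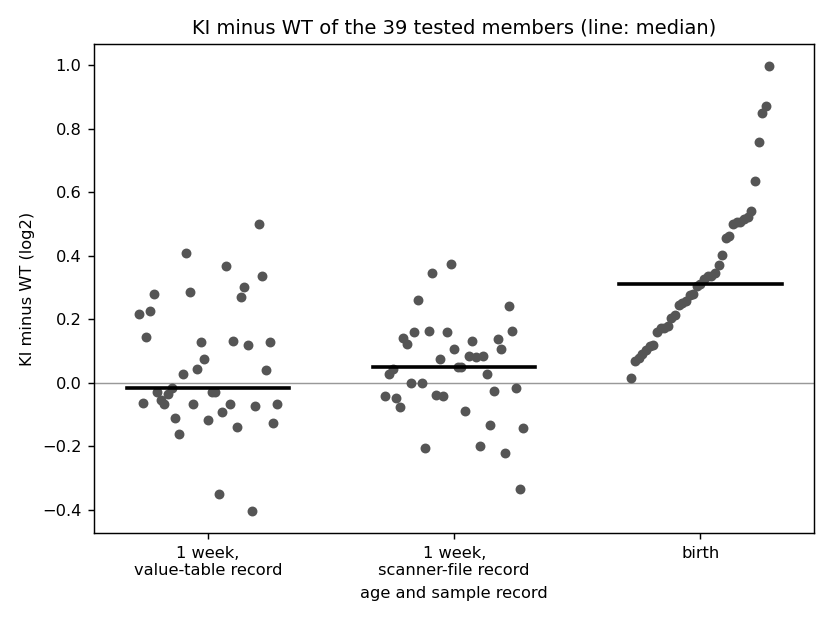
KI minus WT difference (log2) of each of the 39 tested members at 1 week by the value-table record, at 1 week by the scanner-file record, and at birth; members are in the same order from left to right in each column, and a line marks the median. The medians are -0.02, 0.05 and 0.31, and only the birth column lies wholly above 0.

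Whether the genotype difference itself changed with age was tested as the interaction of age and genotype. By the value-table record, 33 of the 39 members had a KI minus WT difference that was lower at 1 week than at birth, with a median change of -0.23, against 0.02 for all genes, of which 53.5% lay above 0. None passed the test, while 0.00635% of all genes did, and 8 had an unadjusted p under 0.05 downward, against 2.93% of all genes. Usp18 had the most negative interaction, -1.07 ± 0.18 with an adjusted p of 0.574. Ifitm6 followed with -1.0, Zbp1 with -0.92, and Ifit1 and Oas2 with -0.72 each. By the scanner-file record 34 were below 0, where 48.1% of all genes lay above 0, with a median of -0.28, and again none passed. The age dependence of the KI difference was thus not established by the test. This comparison uses the same birth arrays as the birth comparison, so its values are not separate evidence.

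Over the first week of life, members of the list passed the test in both directions. In KI ventricles 15 of the 39 fell by 1 week (4.75% of all genes fell) and 3 rose (5.86% of all genes rose). In WT ventricles 7 fell (8.96% of all genes) and 6 rose (10.0% of all genes). By the scanner-file record the counts were 14 fallen (6.88% of all genes) and 4 risen (8.38%) in KI, and 8 fallen (5.67%) and 4 risen (6.98%) in WT. These changes are by limma at an adjusted p under 0.05, and age cannot be told apart from the slide row. The KI changes start from the same KI birth arrays that read high in the birth comparison. The larger number of falls in KI than in WT is therefore not separate evidence of a genotype difference. The counts depended on single arrays, and so did the counts over all genes, since leaving out an array leaves 1 in its group. With each array left out, the members' median change ran from -0.38 to -0.26 in KI and from -0.13 to -0.058 in WT.

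Oasl1, Oasl2, Dhx58, Irf7, Rtp4 and Ifi44 fell in both genotypes by both records. Stat2 and Irf9 passed in neither genotype by either record. Irf7 was at 1.54 and 1.67 in KI at 1 week, against 2.93 and 3.0 at birth, a change of -1.36 ± 0.12 with an adjusted p of 0.0018. In WT it was at 1.63 and 1.72 at 1 week, against 2.38 and 2.51 at birth, a change of -0.77 with an adjusted p of 0.0085. All 4 arrays at 1 week lay below all 4 birth arrays. Ifi44 was at -2.50 and -1.93 in KI at 1 week, against -0.62 and -0.61 at birth, a change of -1.60. In WT it was at -2.51 and -2.60 at 1 week, against -1.01 and -1.49 at birth, a change of -1.30. Oasl1, which in mice also represses Irf7 translation, changed by -1.33 in KI and -0.97 in WT, and Oasl2 by -1.12 in KI and -0.73 in WT. Dhx58 changed by -0.87 in each genotype, and Rtp4 by -0.83 in KI and -0.86 in WT. Ifit3 fell by 1.1 in KI and by 0.87 in WT, although in WT it passed only by the value-table record.

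By the value-table record a further 8 members passed in KI and not in WT, which does not by itself show that the genotypes differ. Usp18 was at -1.45 and -1.65 in KI at 1 week, against -0.48 and -0.36 at birth, a change of -1.13 with an adjusted p of 0.0035. In WT its difference was -0.06. Ifitm6 was at -3.01 and -3.21 in KI at 1 week, against -2.13 and -2.06 at birth, a change of -1.02, and in WT its difference was -0.02. The differences of Oas2 were -0.83 in KI and -0.10 in WT. The others were Ifit1 (-1.42 in KI and -0.71 in WT), Oas1a (-0.72 and -0.39), Bst2 (-0.62 and -0.47), Irgm1 (-0.56 and -0.39) and Ddx58 (-0.52 and -0.10). None had an interaction that passed the test. By the scanner-file record Bst2 and Irgm1 also fell in WT, and Ddx58 did not pass in KI.

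Irf1, Psmb8 and Psmb9 rose in both genotypes by both records. Gbp2, Tap1 and Trim30a passed upward in WT and not in KI by the value table. Irf1 was at 1.96 and 1.92 in KI at 1 week, against 0.83 and 0.86 at birth, a change of 1.09 ± 0.15. In WT it was at 1.81 and 2.13 at 1 week, against 0.62 and 0.84 at birth, a change of 1.24, 2.36-fold. Psmb9 was at -0.15 and -0.21 in KI at 1 week, against -1.09 and -1.27 at birth, a change of 1.00. In WT it was at -0.21 and -0.23 at 1 week, against -1.57 and -1.33 at birth, a change of 1.23. Psmb8 changed by 0.79 in KI and 1.14 in WT. Every 1-week array lay above every birth array in these 3 genes. Gbp2 had a difference of 0.60 in KI, with an adjusted p of 0.0539, and rose by 0.97 in WT. It rose in both genotypes by the scanner-file record. Tap1 had a difference of 0.09 in KI and rose by 0.69 in WT, and Trim30a had a difference of 0.22 in KI and rose by 0.69 in WT. In WT, Tap1 and Trim30a passed by the value-table record alone. Set beside the promoter letters, both elements and windows with neither occurred in each direction. Of the members that rose in WT or KI, Irf1 and Psmb8 hold a GAS match, Gbp2 and Trim30a an ISRE match, and Psmb9 and Tap1 neither. Of those that fell, Ifit1, Ifit3 and Irgm1 hold ISRE matches, Ifitm6 a GAS match, and Oas1a and Bst2 both. Oasl1, Oasl2, Irf7, Ifi44 and Ddx58 hold neither, and the other falling members had no promoter in the table.

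**Figure D4:**
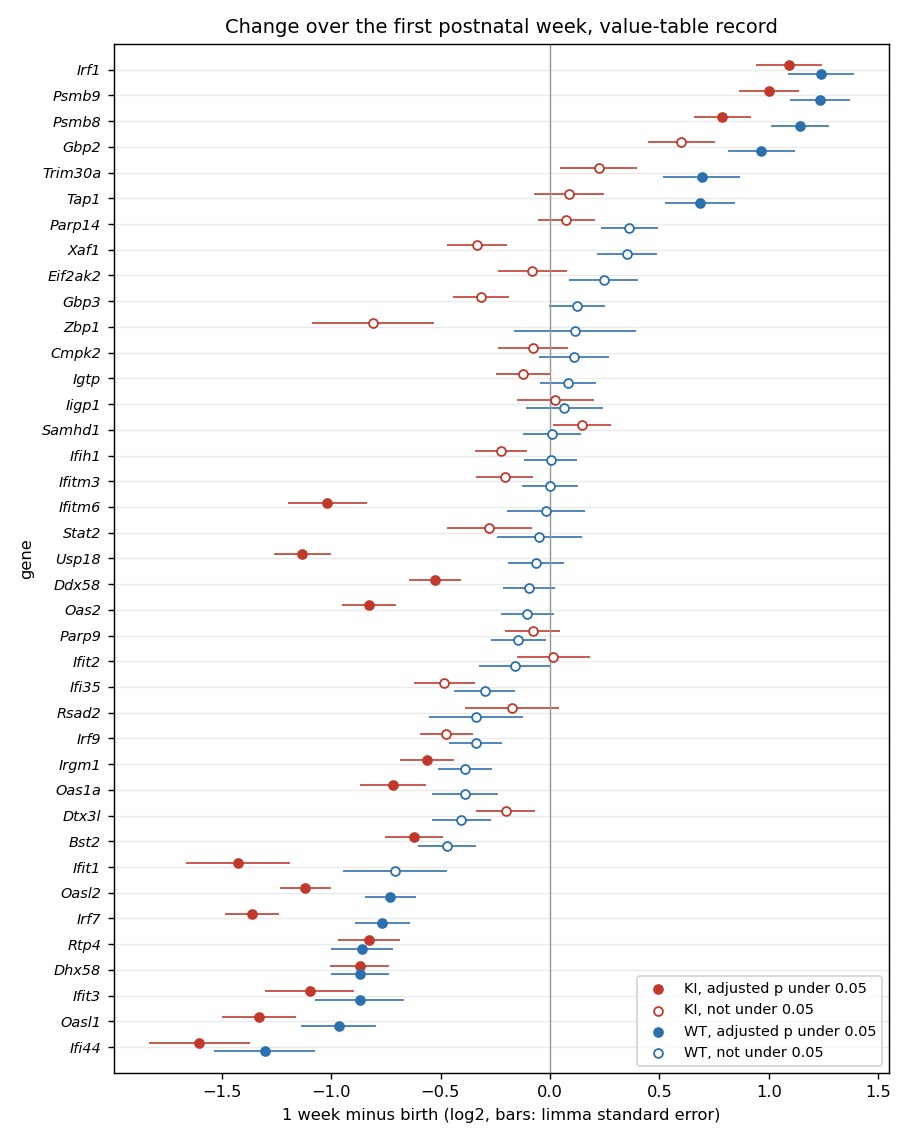
Change between birth and 1 week (1 week minus birth, log2) of each of the 39 tested members in KI (red) and WT (blue) by the value-table record, ordered by the WT change. Bars are limma standard errors and filled points have an adjusted p under 0.05. Irf1, Psmb9 and Psmb8 are filled on the right in both genotypes, at 0.79 to 1.24, and Irf7, Ifi44 and the Oasl genes on the left; for Usp18, Oas2 and Ifitm6 the KI point lies far to the left of the WT point.

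The wider list of other interferon-response genes also had calls in both directions over age. Of the 42 tested, 3 rose (5.86% of all genes) and 5 fell (4.75%) in KI, and 11 rose (10.0%) and 4 fell (8.96%) in WT. With 43 tested by the scanner-file record, 7 rose (8.38%) and 6 fell (6.88%) in KI, and 7 rose (6.98%) and 1 fell (5.67%) in WT. Cxcl9, a chemokine typical of interferon gamma, was not well above background on any birth array and was above it on all 4 arrays at 1 week. It passed the filter only through the 1-week arrays, so its birth levels are bounds and it adds no support to these counts. Gbp5 rose by 0.84 in KI and by 1.28 in WT, and Ly6e by 0.56 in KI and by 0.85 in WT. Ifi27l2a fell by 1.11 in KI and by 1.25 in WT. The adaptor gene Sting1 rose by 1.06 in KI and by 1.26 in WT, and Cgas, which makes the messenger that STING1 reads, by 1.34 in KI and by 1.04 in WT.

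Markers of other cell types also differed between the ages, and their part in the age changes was not tested. By mean log2 level, neutrophil markers were lower on every 1-week array, at -2.74 to -2.33 in KI at 1 week and -2.48 to -2.20 in WT at 1 week, against -0.69 to -0.45 in KI at birth and -1.37 to -1.18 in WT at birth. Their summed level was 7.34 to 7.41 in KI and 7.55 to 7.80 in WT at 1 week. At birth it was 7.40 to 7.55 in KI and 7.43 to 7.46 in WT. That sum again follows Csf3r, at 7.30 on B, 7.37 on C, 7.50 on A and 7.77 on D, and says little on the other markers. Of the 12 neutrophil genes, 9 fell in KI (4.75% of all genes) and 7 in WT (8.96%), and 0 rose (5.86% and 10.0% of all genes). Cxcr2 and Mmp9, of this list, passed the filter only through the KI birth arrays. Macrophage and monocyte markers had summed levels of 5.08 to 5.17 in KI and 5.46 to 5.47 in WT at 1 week, against 4.56 to 4.92 in KI and 4.59 to 4.79 in WT at birth. Their mean levels overlapped between the ages in KI, at -0.35 to -0.12 at 1 week, against -0.52 to -0.30 at birth, and were apart in WT, at -0.16 to 0.13 at 1 week, against -0.62 to -0.32 at birth. Lymphocyte and natural killer cell markers passed upward in 1 of 8 genes in KI (5.86% of all genes), with a median of 0.10. In WT 5 passed upward (10.0% of all genes), with a median of 0.90. The scanner-file record had 1 risen (8.38% of all genes) and 1 fallen (6.88%) of 9 in KI, and 3 risen in WT (6.98%). Nkg7, tested by that record alone, was not well above background on any birth array. Cd79a, of the same list, passed the filter only through the KI birth arrays. The mean adipocyte level was 0.04 to 0.16 on arrays B and C and -3.71 and 1.57 on A and D at 1 week, against -4.16 to -3.90 in KI and -3.84 to -3.79 in WT at birth. None of the 5 adipocyte genes passed by the value-table record, and 4 rose in KI by the scanner-file record (8.38% of all genes). Adipoq, Ucp1, Plin1 and Cfd were well above background on arrays B, C and D only. In either record they passed the filter only through KI at 1 week. Their birth levels are therefore bounds, and the count adds no support. Endothelial markers passed upward in 1 of 6 genes in KI and 3 in WT. Fibroblast markers did so in 2 of 5 in each genotype, with 1 fallen in WT (8.96% of all genes). Platelet markers did so in 0 of 5 in KI and 2 in WT. Of all genes, 5.86% rose in KI and 10.0% in WT.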

How the data were processed

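The deposited scanner files held each spot's processed signal as linear intensity; the scanner software the authors used had already subtracted background within each array, and arrays were not normalized to each other. The flags (other) for outlier spots and for signal well above background took the values 0 and 1, per the file headers. Those headers name Feature Extraction 11.0.1.1 and build mm9, and the submitters' processing notes version 9.1. Per the labels, 100 ng of total RNA was labelled with Cy3. The deposited value table held the same intensity for each probe; its columns were matched to scanner files over all single-spot probes at a relative tolerance of 0.0001.

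The 62976 features covered 56605 probes; the usable spots of the 300 probes printed repeatedly were averaged, and 15 probes with outlier spots only were dropped. Values were log2 signal minus the array's 75th percentile. Symbols came from RefSeq accessions (GRCm38.p6 table), and the files' build differs, so only promoter stretches carry coordinates. A gene was tested if 1 or more groups had its brightest probe well above background on both of their arrays. The 4 group means were fitted on all 8 arrays with limma 3.58.1 in R 4.3.3 (4 residual degrees of freedom), with Benjamini-Hochberg adjustment over all genes tested. The array number, 2 a group, limits the precision. The fit was tested on simulated data for KI minus WT at birth. It recovered 50 of 100 added 2-fold changes and 82 of 100 added 4-fold changes, with 13 false calls.

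The members, role groups, pathway lists and markers were chosen with earlier results of these data known. Genes were named by rule: every member with its birth difference, values by array for the lowest p of each role group and for members past the threshold, and of each pathway list the lowest 2 p. Some genes this rule would name are not reported here. Alternatives were normexp, median scaling, quantile normalization, other filters, the mean of a gene's probes, only the arrays compared, a replicate block, leaving out each array, and outlier spots kept (chosen after seeing the data). Same-numbered arrays of an age deviated from their group means with correlations of 0.29 at birth and 0.16 at 1 week (-0.17 by the scanner-file record), over 2 pairs each, which does not settle whether the numbers pair them.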

Additional observations from a re-analysis of the deposited data

How the results depend on the processing

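At birth 39 of 39 members were above 0 under every alternative run on all arrays except median scaling (38), and 40 of 40 with outlier spots kept. No member passed the test at birth, at 1 week or in the interaction under any of them. Numbers over all genes moved more. Genes passing at birth were 6, but 0 with no filter, 0 with only the arrays compared, 0 by the scanner-file labels and 3 with a filter of above background on all 8 arrays. At 1 week they were 8, but 4 with normexp, 3 with no filter, 4 above background on all 8 arrays, 3 with the mean of all probes, 0 with only the arrays compared and 1 by the scanner-file labels. For the interaction the 1 gene became 2 with median scaling, 0 with quantile normalization, 0 with no filter, 2 above background on all 8 arrays and 0 by the scanner-file labels. For 1 week minus birth in KI, 1670 genes passed, but 1084 with no filter. For 1 week minus birth in WT, 2988 passed, but 1868 with no filter and 1454 with only the arrays compared. The cause was not tested beyond the fewer arrays or other genes these settings hold.

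The median of the members at birth was 0.24 with normexp and 0.25 with median scaling, against 0.31. At 1 week it was 0.070 with median scaling and 0.049 by the scanner-file labels. For the interaction it was -0.087 with median scaling and -0.32 with the mean of all probes. Over age it was -0.19 with normexp in KI, and -0.22 with median scaling and 0.00026 with the mean of all probes in WT. Median scaling itself shifted the median of all genes by -0.16 for age in WT and by 0.15 for the interaction. Dtx3l, KI minus WT at birth, was -0.045 with median scaling.

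With the replicate number as a block, 0 genes passed at birth and 0 in the interaction, and over age 18 members passed in KI and 11 in WT; the numbers are not known to pair the arrays.

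Leaving out 1 array at a time gave 0 to 7 genes at birth, 2 to 22 at 1 week, 0 to 4 in the interaction, 560 to 2022 over age in KI and 1193 to 4180 in WT. The members' median ran from 0.24 to 0.35 at birth, -0.023 to 0.043 at 1 week, -0.32 to -0.20 in the interaction, -0.38 to -0.26 over age in KI and -0.13 to -0.058 in WT. Members passing over age were 7 to 19 in KI and 7 to 13 in WT. Single members reversed at birth without 1 array: Dtx3l (-0.10 to 0.13), Ifit2 (-0.066 to 0.27), Parp9 (-0.012 to 0.17) and Samhd1 (-0.027 to 0.21). The limits are 2 arrays a group, pooled tissue, the disputed labels of arrays B and D, and 1 slide.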
